A study of Homo sapiens with 3 samples.

Results

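Histone genes fall into 2 kinds by how their messages end, and 85 of them were read out here from RNA sequencing of MDA-MB-231 cells, an established human triple-negative breast cancer line that carries the p53 missense mutation R280K. Members were all genes whose symbol begins with HIST1H to HIST4H, H2AF, H3F3 or H1F, which gave 85 of the 22824 genes in the files. Of these, 70 bear HIST symbols and are called replication-dependent here, and 15 are replacement variants or other separately encoded histones. The gene's level was that of its record with the largest total count.

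The study transfected the line with control or p53 siRNA; the 3 libraries analysed here are 1 group, control siRNA, and no comparison between treatments was made. Per the labels, the cells received 50 nM siRNA on 2 occasions 24 h apart with a lipid reagent and were processed 48 h after the second. Total RNA went into Illumina TruSeq RNA libraries read as 100 bp paired ends. The labels call the samples biological replicates but do not say that they came from separate thaws or passages, and they do not name a poly(A) selection step.

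Nucleosomes wrap DNA around an octamer of histones H2A, H2B, H3 and H4, and linker histone H1 binds the DNA between them. Replication-dependent histone genes lie mostly in clusters, lack introns, are transcribed in S phase, and their messages end after a conserved stem-loop instead of in a poly(A) tail. The stem-loop is bound by SLBP and the U7 small nuclear ribonucleoprotein guides the cut behind it. Replacement variants such as H2A.Z and H3.3 are made through the whole cell cycle from ordinary polyadenylated messages and are deposited by their own chaperones. Some replication-dependent genes can also make a longer polyadenylated message from a signal downstream of the stem-loop. A library made from polyadenylated RNA therefore shows little of the main replication-dependent message.

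The sequence that sets the 2 kinds apart is short. A stem-loop was searched on the transcript strand as 16 bases that open with GG, close with CC and hold TT at the start and A at the end of the middle part, kept where the first 6 bases pair with the last 6 around a loop of 4. It was found in at least 1 GENCODE 29 transcript of 31 of the 70 HIST members and of 1 of the 15 others, H2AFX. Among all 19669 protein-coding genes 120 held it (0.610%). The 6 genes below show the forms shared by at least 3 members and that of H2AFX. HIST1H2AC and HIST2H2BE hold the same form with different bases after it. Pairing bases are in capitals, and the loop and 5 flanking bases on each side are in lower case.

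HIST1H2AC: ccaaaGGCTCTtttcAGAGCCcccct

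HIST1H2BC: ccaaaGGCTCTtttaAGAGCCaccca

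HIST2H2BE: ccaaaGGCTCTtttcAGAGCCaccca

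HIST1H4B: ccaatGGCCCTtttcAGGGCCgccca

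HIST2H4A: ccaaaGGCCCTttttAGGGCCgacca

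H2AFX: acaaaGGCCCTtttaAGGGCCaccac

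In the models of the records counted there were 6 distinct stem-loops, of which that of HIST1H3E is not shown above. The form of HIST1H2AC was shared by 17 members, all of them H2A, H2B or H3 genes. The form of HIST1H4B was shared by 5 members and that of HIST2H4A by 3, all H4 genes. The form of HIST1H2BC occurred in 4 H2B and H3 members, and those of H2AFX and HIST1H3E occurred in 1 member each. For 34 of the 70 HIST members the transcript model holds the coding sequence alone, so a stem-loop could not be looked for in them.

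The 3 libraries held 68664126, 84880547 and 54512366 counts in genes. Counts of exactly 2 were more frequent than counts of exactly 1 in each library (712 against 485 genes in replicate 1), so each read pair was taken to have been counted with both mates. A count of 0 then allows up to 3 pairs, or 6 counts, which is 0.0877, 0.0708 and 0.110 CPM (counts scaled to library size) in replicates 1 to 3. Such limits cover counting error only. Vimentin (VIM, 4393 ± 157 TPM, SD, n = 3) was high and the oestrogen receptor gene ESR1 (0.0116 ± 0.00459 TPM) and CDH1 (0.583 ± 0.221 TPM) were low, in the direction listed for this line. Of the leukocyte, endothelial and fibroblast markers, ITGAM and DCN were listed at 0 in all 3 libraries and PTPRC was at 0.495 ± 0.207 TPM. The endothelial markers PECAM1 and KDR were at 1.02 ± 0.171 and 1.10 ± 0.0734 TPM, with 173 to 259 and 152 to 238 counts, and CDH5 had 0, 3 and 4 counts. The collagen gene COL1A1 was at 18.0 ± 2.20 CPM. Its value of 67.4 ± 8.27 TPM rests on the median length of the transcripts under its symbol, because its record had no matching transcript. The collagen gene COL1A2 was at 0.115 ± 0.0245 TPM. The proliferation markers MKI67, TOP2A and PCNA were at 159 ± 14.0, 490 ± 21.3 and 391 ± 11.1 TPM.

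Replacement variants made up nearly all of the histone signal. Of the 15 replacement and other members, 9 reached 1 CPM in each library, against 7 of the 70 HIST members. The 7 include HIST2H2AA3 and HIST2H2AA4, which list the same rows and are 1 signal. Over all genes in the files 55.6% reached that level, so the replacement group stood near the background and the HIST group far below it. No count in any library was found for 23 HIST members and for 1 other member, the oocyte gene H1FOO, where 17.9% of all genes had none. The HIST genes summed to 54.8, 55.4 and 54.1 CPM in replicates 1 to 3, and the other members to 1800, 1876 and 1776 CPM. The 2 sums did not overlap in any library. Per length, HIST genes gave 8.69% ± 0.147 (SD, n = 3) of histone TPM (counts scaled to transcript length and library size), and 2.93% ± 0.0485 of histone CPM.

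The median level on the log2(TPM + 1) scale was 0.39 ± 0.02 for the HIST members and 6.56 ± 0.10 for the others (SD, n = 3), beside 3.33 ± 0.02 for the genes with a count. The first 2 of these medians include members without a count, 23 of them HIST, while the last leaves such genes out. The difference between HIST and other members was -6.24, -6.20 and -6.08 in replicates 1 to 3, of the same sign in 3 of 3 libraries. Its mean was -6.18 ± 0.08, and -5.74 ± 0.13 over members with a count only. No test was made of it, since 3 libraries of 1 group cannot give a two-sided exact sign-flip p below 0.25 and genes are not replicates.

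**Figure D1:**
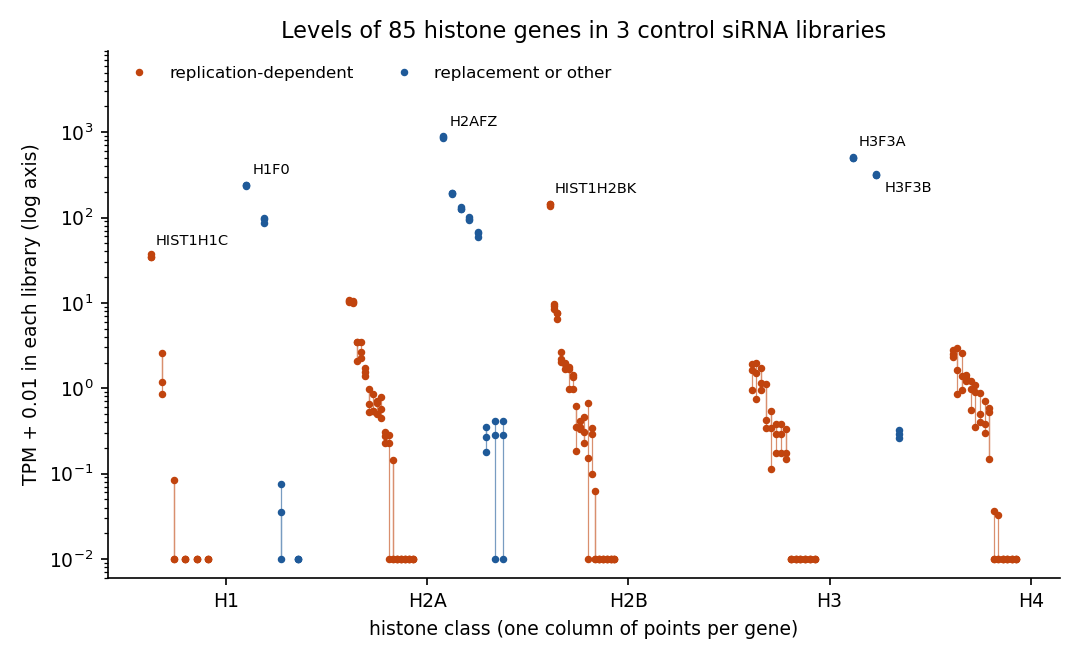
TPM + 0.01 on a log axis for each of the 85 histone genes, 1 column of 3 points per gene (1 point per library), ordered by level within each class; red marks HIST genes and blue the other members. H2AFZ, H3F3A, H3F3B and H1F0 sit above the HIST genes of their class, HIST1H2BK and HIST1H1C stand apart from the other HIST genes, and genes without a count lie on the bottom line.

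Among linker histones, the replacement genes carried most of the signal. H1F0 encodes the linker variant linked to differentiated and resting cells, and was at 231.5, 243.2 and 241.7 TPM in replicates 1 to 3. H1FX, which encodes another separately placed and polyadenylated linker histone, was at 98.2, 96.6 and 86.3 TPM. H1F0 was thus 2.56 ± 0.224 times as high as H1FX per length, and the 2 genes did not overlap in any library. The testis linker gene H1FNT had 1, 0 and 2 counts, which is below the limit of 6 counts.

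Of the 6 HIST linker genes, HIST1H1C was the only one above 1 CPM in each library. It encodes H1.2, a linker histone found in most somatic cells, and was at 34.5, 37.5 and 34.0 TPM on a model of 642 bases of coding length. HIST1H1E, which encodes H1.4, had 26, 72 and 15 counts. That is 0.380, 0.849 and 0.274 CPM, highest in replicate 2. The testis gene HIST1H1T had 0, 2 and 0 counts, and HIST1H1A, HIST1H1B and HIST1H1D had none. Together the HIST genes gave 9.98% ± 0.514 of linker histone TPM.

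Per length, an H2A variant held the highest level of the whole set. H2AFZ encodes H2A.Z, the variant found at promoters and exchanged in by the SRCAP and EP400 complexes, and was at 851, 898 and 870 TPM. It ranked 155th among all genes by mean TPM, while by mean CPM it stood just below H3F3B, at 371 against 373. H2AFV, which encodes the second H2A.Z protein, was at 126.3, 133.7 and 125.0 TPM on its longest record, whose model has 3804 bases. Its 4 shorter records have models of 596 to 752 bases and gave means of 447 to 493 TPM, so its level depends on which messages the cells make, and the counts do not settle this. Under each of its 5 records H2AFV stood below H2AFZ.

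H2AFY encodes macroH2A1, an H2A with a large extra domain that is known from silent chromatin, and was at 193.4, 191.8 and 190.1 TPM. Its relative H2AFY2 had 10, 25 and 12 counts and a mean of 0.256 ± 0.0849 TPM. H2AFX encodes the variant whose phosphorylation marks DNA breaks, and was at 101.2, 97.2 and 94.6 TPM. Its model runs on for 1044 bases after the stem-loop shown above and has a poly(A) signal in its last 50 bases. H2AFJ encodes H2A.J, an H2A close to the canonical protein, and was at 65.3, 67.6 and 59.5 TPM on a model of 644 bases, but at 13.2 ± 0.840 TPM on its second record of 3107 bases, which had nearly the same counts. The H2A.B genes H2AFB1 and H2AFB2 list the same rows and had 7, 6 and 0 counts.

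The 17 HIST genes for H2A gave 1.52% ± 0.0991 of H2A TPM. HIST2H2AA3 and HIST2H2AA4 are twin copies that list the same 2 rows under both names, so the 177, 216 and 132 counts were taken once. That is 2.59, 2.55 and 2.41 CPM, with little spread between libraries. Each of the rows held part of the sum, 72, 102 and 63 counts in the first and 105, 114 and 69 in the second. HIST1H2AC had 169, 164 and 88 counts, or 2.47, 1.93 and 1.61 CPM, lowest in replicate 3. HIST2H2AC stood at 3.002 ± 0.808 TPM and HIST1H2AM at 1.55 ± 0.181 TPM, each on coding length. The testis gene HIST1H2AA had 0, 2 and 0 counts. HIST1H2AD, HIST1H2AE, HIST1H2AL, HIST2H2AB and HIST3H2A had none.

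No separately placed H2B gene is among the members, so the HIST genes were the only measured H2B source. HIST1H2BK led all 70 HIST members with 1615, 1940 and 1304 counts, or 23.6, 22.9 and 23.8 CPM. It gave 66.2% ± 0.452 of H2B CPM and 42.8% ± 1.39 of all HIST CPM. On its coding length of 381 bases its level was 141.7 ± 4.31 TPM. A longer true message would lower this value, while the CPM would stay. By CPM it lay below H1FX and above H2AFJ, the least abundant of the 9 replacement members that reached 1 CPM.

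HIST2H2BF followed with 6.431, 5.497 and 6.390 CPM, lowest in replicate 2, and came from 2 rows of 318, 362 and 268 and of 122, 104 and 82 counts. HIST1H2BD had 2.92, 3.36 and 3.12 CPM. Its record of largest count is a 789-base message without a stem-loop, with 200, 285 and 171 counts, and its 496-base record with a stem-loop 39 bases before the end had 142, 212 and 117. The 2 records overlap, and a read may be counted in both. HIST1H2BJ was at 2.28 ± 0.308 TPM and HIST1H2BC at 1.84 ± 0.168 TPM. The testis gene HIST1H2BA had 0, 1 and 0 counts. HIST1H2BF, HIST1H2BG, HIST1H2BH, HIST1H2BI and HIST3H2BB had none.

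Of the 3 classes with both kinds of gene, H3 had the smallest HIST share. H3F3A and H3F3B encode the same protein, H3.3, from different genes. H3F3A was at 502, 511 and 499 TPM and H3F3B at 313, 326 and 313 TPM, so H3F3A was 1.59 ± 0.0198 times as high per length. By CPM the order was the other way, with H3F3A at 0.640 ± 0.00797 times H3F3B, whose model has 2705 bases against 1088. The order of this pair therefore rests on the lengths of the messages. H3F3C, a primate-specific H3 gene derived from H3F3B, had 10, 10 and 7 counts, in which stray reads from its near-identical parent cannot be told apart.

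All 14 HIST genes for H3 together gave 65, 141 and 57 counts, taking each signal once, or 0.950, 1.66 and 1.04 CPM. None reached 1 CPM in each library, and the highest mean was 0.266 CPM. Their share of H3 TPM was 0.671% ± 0.183. Replicate 2 was the highest and the other libraries lay close together. HIST1H3D, HIST1H3E, HIST1H3F, HIST1H3G, HIST1H3I and HIST3H3, a testis gene, had no counts.

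H4 has no replacement variant among the members. The 15 HIST genes for H4 summed to 1.86, 1.83 and 1.52 CPM. HIST2H4A and HIST2H4B, another pair of twin copies, had 48, 55 and 32 counts over the same 2 rows. HIST1H4H had 10, 43 and 15 counts, highest in replicate 2, and HIST1H4A had 24, 11 and 10, highest in replicate 1. HIST1H4D, HIST1H4F, HIST1H4G and HIST1H4L had none. With all genes of a class added, the measured H3 sum was 91.6 ± 10.7 times the H4 sum in TPM and 356 ± 35.0 times in CPM. The H2A sum was 8.28 ± 0.375 times the H2B sum in TPM and 25.7 ± 1.26 times in CPM. H4 and H2B came from HIST genes alone, so these ratios are of messages seen in the libraries.

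By gene cluster, 4 of 55 HIST1 members and 3 of 11 HIST2 members reached 1 CPM in each library. The 3 include both HIST2H2AA twins, which are 1 signal. The HIST1 members summed to 43.0, 44.4 and 42.4 CPM, of which HIST1H2BK and HIST1H1C were the main part. The HIST2 members summed to 11.63, 11.03 and 11.59 CPM. All 3 HIST3 members had no counts, and the single HIST4 member, HIST4H4, had 10, 3 and 7. Genes of a class can share stretches of sequence, and how the deposited counting treated reads that match several copies is not given in the sources used here, so counts of single HIST genes under 1 CPM are uncertain in their split between copies.

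The HIST signal was concentrated in few genes. The 8 HIST members with a mean of at least 1 CPM, of which the HIST2H2AA twins are 1 signal, gave 88.1% ± 1.05 of HIST CPM. The other 62 summed to 6.24, 7.29 and 6.10 CPM. HIST1H2BK and HIST1H1C alone gave 60.8% ± 0.543. Without these 2 genes the HIST share of histone TPM was 2.41% ± 0.0509, and over members whose model is longer than its coding sequence it was 1.70% ± 0.0400, an alternative chosen after seeing the data.

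The 70 HIST members were set against the ends of their transcript models. A poly(A) signal, AATAAA or ATTAAA on the transcript strand, lay in the last 50 bases of at least 1 transcript for 22 of 70 HIST members and 12 of 15 others, beside 81.9% of all protein-coding genes. The models described next are those of the records counted. The 34 models of coding sequence alone end before any such signal could be reached. Among the 36 longer models, 19 have a stem-loop with 100 or more bases after it, 11 have a stem-loop with fewer, and 6 have none. HIST2H2BF, HIST2H2BE and HIST1H2AC, 3 of the 8 HIST members above a mean of 1 CPM, have models that run on for 1479, 1729 and 1114 bases past the stem-loop. The HIST2H2AA twins end 35 bases past it, with a poly(A) signal in the last 50 bases, and HIST1H2BD has a record without it. Of the 19 members with long extensions, 2 reached 1 CPM in each library and 6 had no counts. Among the 36 longer models, 5 of the 16 with a poly(A) signal at the end reached 1 CPM in each library and 0 of the 20 without it did. The 5 include both HIST2H2AA twins, which are 1 signal.

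**Figure D2:**
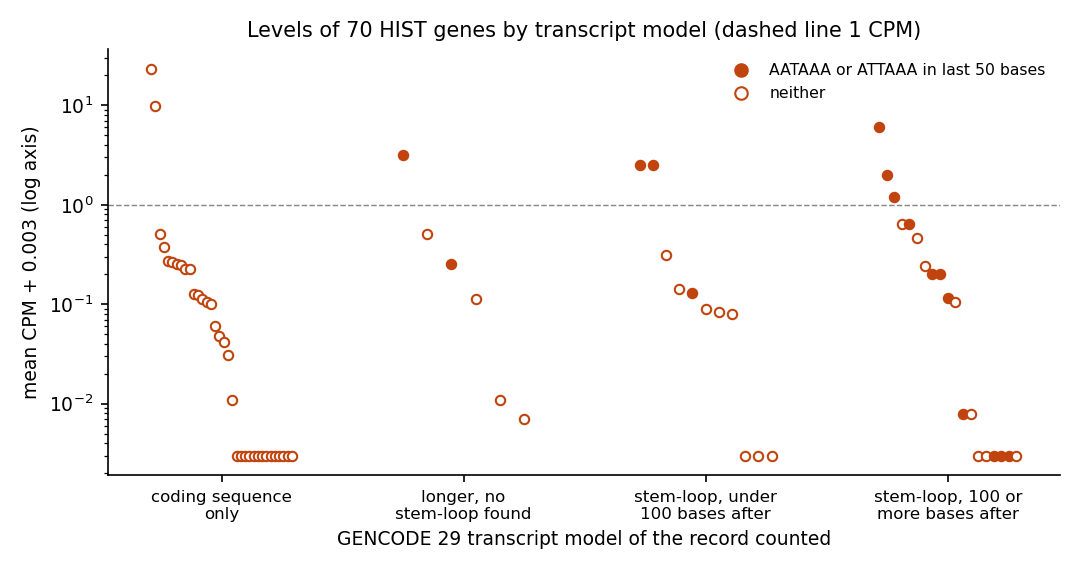
Mean CPM + 0.003 on a log axis for the 70 HIST genes, grouped by the transcript model of the record counted; filled circles have AATAAA or ATTAAA in the last 50 bases and open circles have neither. Above the dashed line at 1 CPM, the 2 genes on coding-only models are HIST1H2BK and HIST1H1C and the other 6 are filled, including the twins HIST2H2AA3 and HIST2H2AA4.

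Promoter sequence was compared for the HIST gene with the highest level and for a replacement gene, since both are strongly read. RefSeq promoters (GRCh38.p14, 250 bases before the start to 50 after) were matched for 78 of the 85 members, and 3 motifs were searched on both strands. CCAAT lay in 55 of 65 HIST promoters and 10 of 13 others, beside 35.7% of all promoters. TATAAA lay in 43 of 65 and 4 of 13, beside 11.95% of all. The octamer ATGCAAAT, the letters bound by the POU factor encoded by POU2F1 at H2B promoters, lay in 26 of 65 and in 1 of 13, H3F3B, beside 1.80% of all. The 250 bases before the start of each gene follow, from chr6:27146859-27147108 and chr17:75779780-75780029, both on the minus strand, with all 3 motifs in capitals.

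HIST1H2BK: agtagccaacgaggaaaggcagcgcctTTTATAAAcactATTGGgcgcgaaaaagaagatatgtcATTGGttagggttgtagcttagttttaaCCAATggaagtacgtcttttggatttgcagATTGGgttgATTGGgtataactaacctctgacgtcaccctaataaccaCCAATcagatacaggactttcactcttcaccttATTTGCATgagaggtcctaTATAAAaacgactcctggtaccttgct

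H3F3B: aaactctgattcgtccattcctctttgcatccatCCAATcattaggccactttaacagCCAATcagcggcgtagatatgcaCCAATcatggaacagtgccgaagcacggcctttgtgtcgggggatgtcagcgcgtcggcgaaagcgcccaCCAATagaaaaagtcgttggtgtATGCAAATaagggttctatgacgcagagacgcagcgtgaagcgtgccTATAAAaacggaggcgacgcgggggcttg

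HIST1H2BK holds CCAAT 6 times, TATAAA 3 times and the octamer 1 time, and H3F3B holds them 4 times, 1 time and 1 time. The nearest TATAAA ends 21 bases before the start of HIST1H2BK and 23 bases before that of H3F3B. The other 2 of HIST1H2BK overlap each other, 1 on the opposite strand ending 217 bases before the start and 1 on the same strand ending 215 bases before it. These matches are a description of letters and not of bound factors.

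On the opposite strand lies HIST1H2AH, which starts 248 bases away and points the other way. Such divergent neighbours are common among H2A and H2B genes, and 12 pairs of members with starts at most 300 bases apart were found. HIST1H2BK had 1615, 1940 and 1304 counts where HIST1H2AH had 8, 7 and 6. The ratio was 202, 277 and 217 in replicates 1 to 3. HIST1H2AC had 169, 164 and 88 counts and its neighbour HIST1H2BC 33, 35 and 26, and HIST2H2BE had 63, 116 and 69 where HIST2H2AC had 40, 30 and 32. In counts, each of these 3 pairs kept its order in 3 of 3 libraries, with no overlap. Per length the last pair was the other way, on models of 2194 bases for HIST2H2BE and 390 for HIST2H2AC. HIST2H2BE was at 0.966, 1.42 and 1.34 TPM and HIST2H2AC at 3.45, 2.07 and 3.49 TPM. Of the other pairs, HIST1H2AI with HIST1H2BL and HIST1H2AM with HIST1H2BO changed order in replicate 2, with count ratios of 0.909 and 0.8.

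In 3 pairs both genes had no counts in any library, HIST3H2A with HIST3H2BB, HIST1H3D with HIST1H2BF, and HIST1H2BG with HIST1H2AE. In the other 9 pairs both genes had at least 1 count in some library. No pair had a gene with counts facing a gene without any. Some of these counts lie within the 6 that a count of 0 allows, so this split rests on them. HIST1H2AA had 0, 2 and 0 and HIST1H2BA 0, 1 and 0, while HIST1H2AK had 0, 4 and 2 and HIST1H2BM 0, 2 and 6. Of the 24 members in pairs 6 had no counts, beside 32.9% of all HIST members and 17.9% of all genes. Of the genes in the remaining 6 pairs none exceeded a mean of 0.377 CPM.

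**Figure D3:**
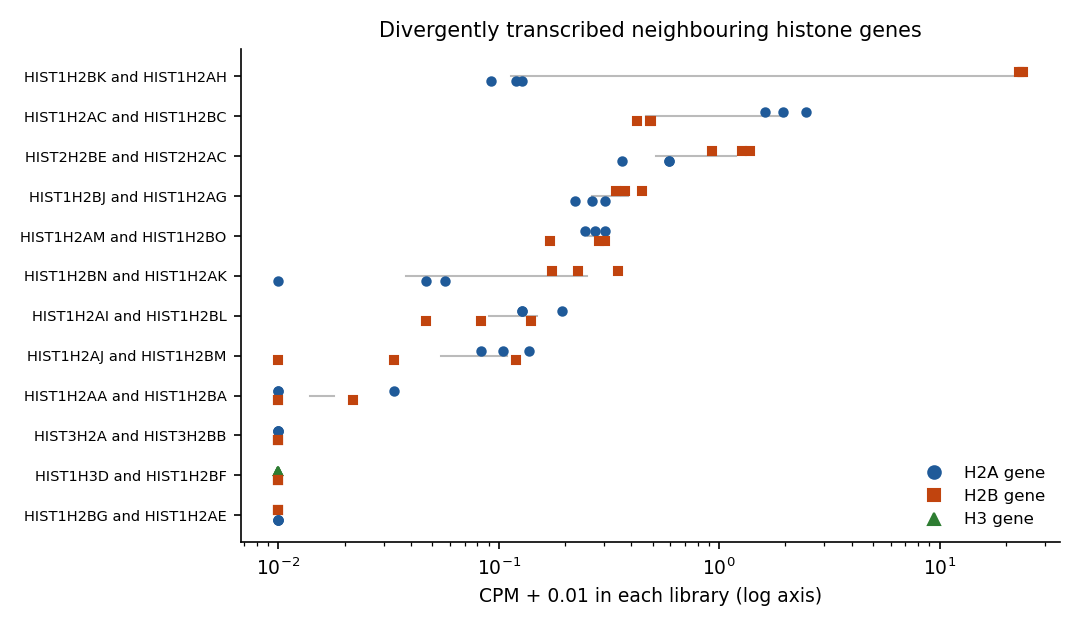
CPM + 0.01 on a log axis for the 2 genes of each of 12 divergent pairs, 1 point per library, with H2A genes as blue circles, H2B genes as red squares and H3 genes as green triangles; a grey line joins the means. HIST1H2BK lies at least 202-fold above its neighbour HIST1H2AH in counts in each library, and 3 pairs lie at 0 on both sides.

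Spread between libraries was read against counting noise with edgeR, fitting 1 mean per gene over the 3 libraries and counting each read pair as 1. Of the 29 members with enough counts to be tested, 6 had a spread larger than counting noise (adjusted p under 0.05), and over all genes tested 28.5% did. The share of members was thus near the background. They were 5 of the 9 replacement members tested, H3F3B, H2AFZ, H2AFV, H1F0 and H1FX, and 1 of the 20 HIST members, HIST1H1E. The 20 and the 29 hold the twins HIST2H2AA3 with HIST2H2AA4 and HIST2H4A with HIST2H4B under both names. Each of these pairs is 1 signal, and neither passed. The fit can call smaller spreads at higher counts, so the shares of these groups and of all genes are not matched for level. The p-values measure only the spread between these samples, which may be technical.

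H2AFZ had 362, 386 and 366 CPM, a highest-to-lowest ratio of 1.07 (edgeR adjusted p = 1.43e-06). H3F3B had 368, 387 and 363 CPM, a ratio of 1.06 (edgeR adjusted p = 4.52e-06). H2AFV had 208.8, 223.1 and 204.3 CPM, a ratio of 1.09 (edgeR adjusted p = 1.54e-06). H1F0 had 235.80, 249.97 and 243.44 CPM, a ratio of 1.06 (edgeR adjusted p = 0.00266). These 4 were each highest in replicate 2, on 11189 to 32779 counts per library. With HIST1H1E, 5 of the 29 members tested passed and were highest in replicate 2, where 7.67% of all genes tested did so.

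H1FX had 64.3, 63.9 and 55.9 CPM, lowest in replicate 3, a ratio of 1.15 (edgeR adjusted p = 0.000148). Its transcript has 68.6% G and C, and in replicate 3 the tested genes richest in G and C, with a median of 64.5%, had a median deviation of -0.09 from the gene's mean on the log2 scale, with H1FX itself at -0.13. The part of base composition in the H1FX value was not tested. H2AFX, H2AFJ, H2AFY and H3F3A did not pass the threshold, with H3F3A closest (edgeR adjusted p = 0.0571).

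HIST1H1E differed most, with a ratio of 3.10 (edgeR adjusted p = 0.00956), on 26, 72 and 15 counts. Without replicate 2 it did not pass, and without replicate 3 it did not pass either. Leaving out replicate 2 kept H1FX as the only one of the 6 called, and leaving out replicate 3 lost H1FX. Leaving out replicate 1 lost H1F0. When both mates were counted singly 11 members passed, with 53.0% of all genes. With a coefficient of variation of 0.05 allowed between cultures 0 members passed, with 0.0485% of all genes, while 6 had passed without that allowance.

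**Figure D4:**
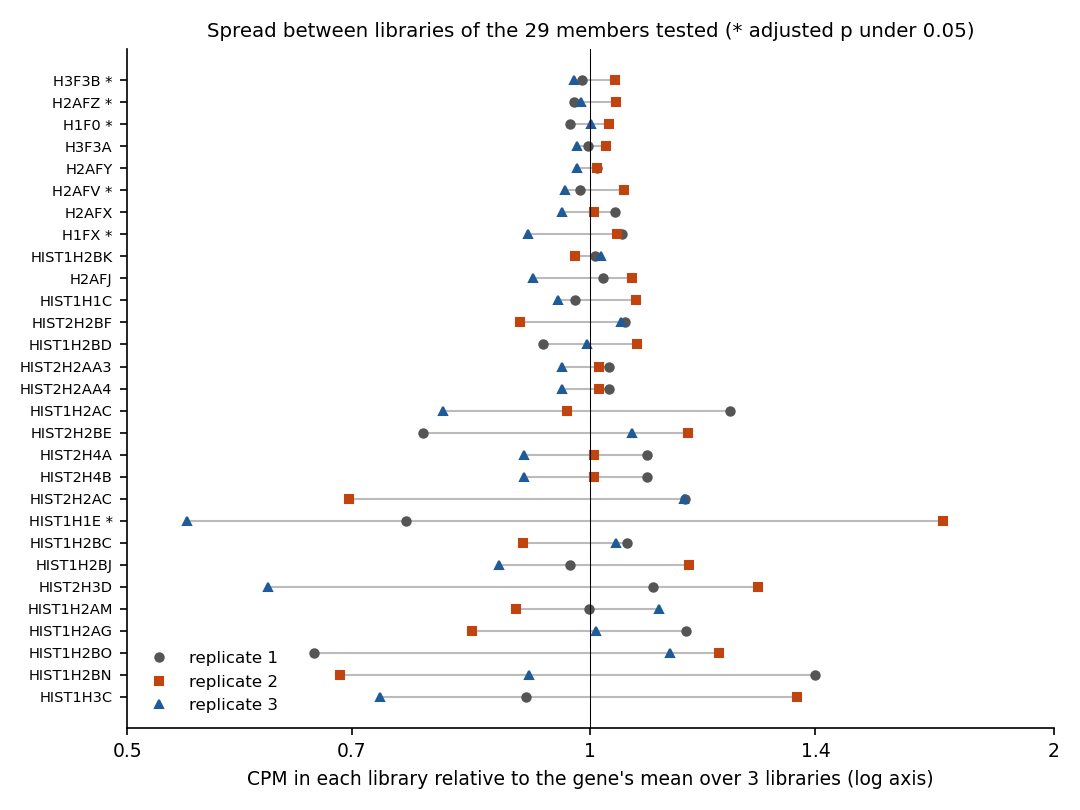
CPM of the 29 tested members in each library relative to the gene's mean over 3 libraries, on a log axis, ordered from the most to the least abundant; stars mark an adjusted p under 0.05. The replacement genes at the top lie within a few percent of their mean, HIST1H1E spans 3.10-fold, and low-count HIST genes spread widely without passing the threshold.

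RNAs known to lack poly(A) tails were read beside the HIST genes. The ribosomal RNA precursor RNA45SN5 was at 2739, 4558 and 2228 CPM and RNA5-8SN5 at 14.2, 34.3 and 14.4 CPM, both highest in replicate 2. Of the 14 listed RNAs without tails that are in the files, these 2 were the only ones at 10 CPM or more. Both are ribosomal RNAs and may share reads, so they may not be separate observations. MALAT1, whose end is cut by RNase P, was lowest in replicate 2, at 426, 271 and 455 CPM. NEAT1, listed with MALAT1, was level in replicates 1 and 2, at 105.7, 105.3 and 121.6 CPM. HIST genes for H3 and HIST1H1E were also highest in replicate 2. The 62 HIST members under 1 CPM summed to 7.29 CPM there against 6.24 and 6.10. These 62 include HIST1H1E and all HIST genes for H3, so the values are not separate observations. HIST genes for H4 did not follow, with 1.83 CPM in replicate 2 against 1.86 in replicate 1. HIST genes for H2B were lowest in replicate 2, at 35.4, 34.7 and 36.1 CPM. HIST1 members summed highest there, at 43.0, 44.4 and 42.4 CPM, and HIST2 members lowest, at 11.63, 11.03 and 11.59 CPM. The sum over all HIST members differed by 1.03-fold between the highest and the lowest library. The part of RNA without tails in these values was not tested.

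**Figure D5:**
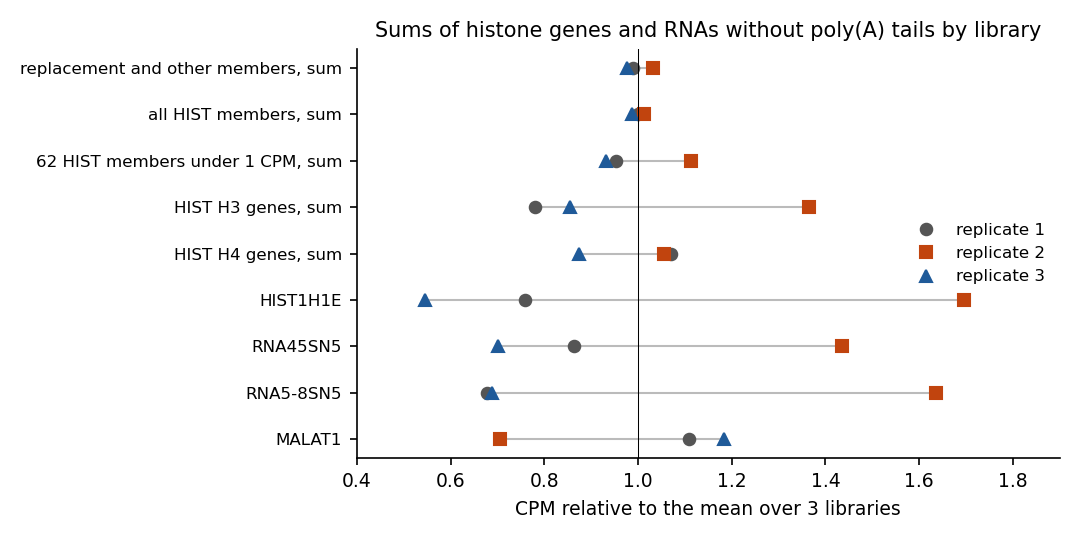
CPM in each library relative to the mean over 3 libraries for sums of histone genes, HIST1H1E and 3 RNAs without poly(A) tails. The sum of all HIST genes stays close to 1, HIST1H1E and the sum of HIST H3 genes are highest in replicate 2 as are RNA45SN5 and RNA5-8SN5, and MALAT1 is lowest there.

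The machinery that makes and places histones was present throughout. Over 6 lists, 56 genes counted once each, all 56 reached 1 CPM in each library, beside 55.6% of all genes. Of the 56, 28 varied beyond counting noise, where 28.5% of all genes tested did, and 0 did with a coefficient of variation of 0.05 allowed, where 0.0485% of all genes did. The fit can call smaller spreads at higher counts, and the genes tested include some under 1 CPM. That 28.5% is therefore not matched to the level of the 56 genes. The counts of each list below are to be read beside it with this limit.

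The 13 genes of histone pre-mRNA 3' processing had a median of 49.5 TPM. SLBP, which binds the stem-loop, led at 120.9, 123.1 and 119.6 TPM, followed by SRRT, a cap-binding partner, at 117.7, 110.4 and 114.8 TPM. LSM11, a protein of the U7 particle, was the lowest at 2.43 TPM on average. Of the 13, CASP8AP2, CPSF3 and SYMPK varied, by ratios of 1.15, 1.12 and 1.12.

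Of the 9 genes of histone gene transcription, CDK2, which phosphorylates NPAT, was highest at 74.1 TPM, then E2F1 at 67.4 TPM. POU2F1 was lowest at 8.93 TPM. NPAT, the coactivator at the histone clusters, was at 15.5, 16.1 and 16.2 TPM. E2F1, HINFP, an activator of H4 genes, and CASP8AP2 varied.

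Among 11 chaperones of newly made H3 and H4, NASP was highest at 219.8, 215.6 and 239.0 TPM, followed by RBBP7 at 181.1 TPM, and CHAF1B, a subunit of the assembly factor CAF-1, was lowest at 15.2 TPM. ASF1A, ASF1B, NASP, RBBP4, MCM2, TONSL and IPO4 varied, ASF1A the most, at 22.3, 27.9 and 27.5 CPM. Of the 6 genes for H3.3 chaperones, DAXX was highest at 92.3 TPM, UBN1 next at 44.6 TPM and UBN2 lowest at 4.13 TPM. HIRA, UBN1, UBN2, CABIN1 and ATRX varied, with a ratio of 1.20 for ATRX.

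The 13 chaperones and exchange factors for H2A, H2B and H2A.Z were led by NAP1L1 at 1988, 2061 and 2253 TPM, followed by SSRP1 of the FACT complex at 411.5 TPM. The TPM of NAP1L1 rests on the median length of the transcripts under its symbol. By mean CPM NAP1L1 also led, at 979 against 504 for SSRP1. EP400 was lowest at 24.0 TPM. Of these 10 varied, NAP1L1, NAP1L4, SUPT16H, SSRP1, EP400, SRCAP, ANP32E, ZNHIT1, RUVBL1 and RUVBL2. The centromeric H3 gene CENPA, which bears no HIST symbol, was at 34.0, 35.0 and 34.4 TPM. Its chaperone gene HJURP was at 119.8 TPM and MIS18A was lowest at 20.03 TPM. CENPA, HJURP and MIS18A did not pass the threshold for variation.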

How the data were processed

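The deposited files hold counts of reads per RefSeq record, 1 file for each of 3 libraries; per the submitters' processing notes FastQC, TopHat2 and Cufflinks were used with hg19. The counter, its strand setting and its treatment of reads with several hits are not given in the sources used here. Each file has 42269 rows and 39005 record identifiers; rows of 1 identifier were summed and a gene took its record with the largest total. Names were blank for 6937 records, and RefSeq accessions supplied 6318 of them.

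CPM used edgeR 4.0.16 TMM library sizes, and TPM used GENCODE 29 transcript lengths, found for 98.757% of genes with a count. Where the counted record had no matching transcript, the median length of the transcripts under the gene's symbol was used, as for COL1A1 and NAP1L1. Sums over genes took twins that list the same rows once. Variation used an edgeR GLM with 1 mean per gene and dispersion 0 on counts divided by 2, the deviance against a chi-square, Benjamini-Hochberg adjustment over all 14432 genes passing filterByExpr, and a threshold of 0.05; the fit was tested on simulated data. DESeq2 1.42.0 size factors, no filter, other count rules, length scales, pseudocounts, dispersions and leaving out each library were tried. R 4.3.3 and Python 3.11.15 were used.

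The members and lists were chosen with earlier results of these data known. Named were every member outside the HIST symbols, the 15 HIST members of highest mean TPM, HIST members that varied, testis genes, members without counts, and of each list the 2 highest, the lowest and those that varied, with NPAT added; some genes of the lists are not reported here. Members of pairs, HIST2H2BE and HIST4H4 were named after their values were seen.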

Additional observations from a re-analysis of the deposited data

How the results depend on the processing

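The median difference between HIST and other members (log2 scale, -6.18) kept its sign under each alternative run. It was -5.85 with CPM in place of TPM, -7.84 with a pseudocount of 0.1, -5.47 with counts summed over a gene's records, -7.20 against the ubiquitous replacement genes, -5.74 over members with a count and -3.84 with the mean over members, and -6.22 to -6.14 when a library was left out. The HIST share of histone TPM (8.69%) was 2.93% with CPM, 6.62% with summed records, 8.44% with the largest single row, 2.41% without HIST1H2BK and HIST1H1C, 1.70% on longer models, and 8.63% to 8.78% when a library was left out. The HIST sum of 54.8 CPM was 21.5 without those 2 genes. The 6 members that varied became 11 with mates counted singly, 0 with a coefficient of variation of 0.05 and 10 with summed records, and 2 to 6 when a library was left out. Over all genes 4119 varied, then 7656, 7 and 6101 under the same settings, and 1297 to 3093 when a library was left out, the lowest without replicate 3. The median level of the 56 processing and chaperone genes stood 2.36 above that of all genes with a count and a length on the log2 scale, and 2.54 with CPM. Of 204 values of single genes under alternatives, 152 moved by less than the spread between libraries or not at all and 52 by more. The cause of these moves was not tested. DESeq2 size factors left the same 6 members. HIST counts of 6 or fewer lie within the limit given above for a count of 0, and why they are low was not tested. No paired analysis was possible because there is 1 group.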

Other observations

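The records of 1 gene can differ in what they hold. HIST2H2BF has a 999-base record with 37, 49 and 18 counts beside its main record of 1954 bases with 440, 466 and 350, so most of its signal lay outside the shorter record. H2AFY has 4 records whose counts in replicate 1 lay between 15578 and 16040, so the counts do not separate its messages.

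Over all 18739 genes with a count, 32.4% were highest in replicate 2. Among HIST signals with a count, taken once each, 21 of 44 were highest there, 15 in replicate 1 and 8 in replicate 3. Of the 13 other members with a count, taken once each, 8 were highest in replicate 2. Many of these genes have few counts, and replicate 2 is also the deepest library.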
